A study of Mus musculus with 12 samples.

Results

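The 10 genes described here encode transcription factors that mark and maintain the naive state of mouse pluripotent cells: Klf2, Klf4, Klf5, Esrrb, Tbx3, Tfcp2l1, Zfp42, Prdm14, Nr0b1 and Nr5a2. They were 10 of 20959 genes named on either array design, and they were taken by symbol, with every probe whose accession matched a member, whatever its value. The design used for vitamin C held 12 such probes of 41174 for 9 genes, since no probe there matched Prdm14. The design used for retinoic acid held 12 of 55681 for all 10 genes, and 6 member probes were on both designs.

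Total RNA of J1 mouse embryonic stem cells was hybridised to one-colour Agilent arrays, 3 samples in each of 4 groups. Cells of this one line, adapted to gelatin, were kept in a serum replacement medium with leukaemia inhibitory factor (LIF) at 1000 U/mL in all 4 groups. The groups received vitamin C (VC, given in the labels as 50 µg with no volume), its water control (ddH2O, 1 µL), retinoic acid (RA, 1 µM) or its solvent control (DMSO, 1 µL), each for 24 h. The comparisons, VC against ddH2O and RA against DMSO, ask what each compound does to gene expression in these cells. Whether samples of one group were separate cultures is not given in the labels, so p-values measure the spread among these samples alone, which may be technical.

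In mouse embryonic stem cells, LIF acts through the receptor subunits encoded by Lifr and Il6st and the factor STAT3, and STAT3 activates Klf4 and Tfcp2l1. Esrrb is repressed by Tcf7l1 and released from it by Wnt signalling, Tbx3 lies downstream of PI3-kinase signalling, and Prdm14 represses genes of FGF signalling and DNA methylation. Together these factors sustain one another and the core factors Pou5f1, Sox2 and Nanog. Most of them are silenced as cells leave the naive state, and Zfp42, also known as Rex1, is widely used as a reporter of it. RA, the ligand of the retinoic acid receptors, is a standard inducer of differentiation, and VC is a cofactor of dioxygenases that include the Tet enzymes.

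A value below is the log2 signal of a probe relative to the 75th percentile of the probes on its array, so 0 stands for that percentile. Probes differ in how brightly they hybridise, so the values of a probe are compared between samples and not with those of other probes. Sums over marker probes, given below, are weighted towards the brighter probes. The signal at that percentile, before it was subtracted, was 288 to 388 on RA arrays and 608 to 612 on DMSO arrays. It was 496 to 699 on VC and ddH2O arrays. The share of probes well above background was 67% to 70.3% per VC or ddH2O array and 60.9% to 65.6% per RA or DMSO array. Of the markers of embryonic stem cells used to check the label, all 6 on the first design were well above background on at least 1 array of VC and of ddH2O, and all 8 on the second on at least 1 array of RA and of DMSO. The DMSO arrays were all on one slide and the RA arrays all on another, so slide and RA cannot be told apart. VC replicates 1 and 2 and ddH2O replicates 2 and 3 shared a slide, while ddH2O replicate 1 and VC replicate 3 were each on a slide of their own. Of these 6 arrays, only VC replicate 3 was scanned on another day.

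RefSeq promoter windows matched 7 of the 10 members, with 9 windows (GRCm38.p6), while Klf5, Tbx3 and Prdm14 are named only. Tfcp2l1, whose window is not shown, was called in RA and, in VC, with its dimmer probes but not its brightest. The 250 bases before the start are shown for Nr0b1, whose fall in RA was the largest as processed here. They are also shown for Esrrb, Klf4 and Zfp42, which were called in both comparisons, and for Klf2, which was not called in VC. These stretches are chrX:86191525-86191774 for Nr0b1 on the plus strand, chr12:86360867-86361116 for one of the windows of Esrrb on the plus strand, chr4:55532476-55532725 for Klf4 on the minus strand, chr8:43307010-43307259 for Zfp42 on the minus strand and chr8:72318812-72319061 for Klf2 on the plus strand. Each is written 5′ to 3′ on the strand of the gene, ending at the base before the start. Capitals mark matches on either strand to 6 motifs: the nuclear receptor half-site AGGTCA, the octamer ATTTGCAT, the CACCC box CCACCC, the GC box GGGCGG, the STAT palindrome TTCNNNGAA and the TATA box TATAAA.
Nr0b1: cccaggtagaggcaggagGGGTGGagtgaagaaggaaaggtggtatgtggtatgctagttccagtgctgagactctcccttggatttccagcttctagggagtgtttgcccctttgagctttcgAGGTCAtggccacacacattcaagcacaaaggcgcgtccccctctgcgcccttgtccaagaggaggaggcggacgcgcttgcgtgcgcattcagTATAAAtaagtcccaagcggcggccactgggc
Esrrb: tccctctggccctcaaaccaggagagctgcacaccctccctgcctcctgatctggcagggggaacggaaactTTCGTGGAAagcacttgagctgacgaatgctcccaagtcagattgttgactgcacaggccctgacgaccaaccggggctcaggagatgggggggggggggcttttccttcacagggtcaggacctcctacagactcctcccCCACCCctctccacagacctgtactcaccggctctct
Klf4: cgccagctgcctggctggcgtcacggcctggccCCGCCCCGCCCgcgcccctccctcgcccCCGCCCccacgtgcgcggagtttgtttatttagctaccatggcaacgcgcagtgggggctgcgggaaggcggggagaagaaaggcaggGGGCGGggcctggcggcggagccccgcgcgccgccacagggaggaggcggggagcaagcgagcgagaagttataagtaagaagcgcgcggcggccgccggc
Zfp42: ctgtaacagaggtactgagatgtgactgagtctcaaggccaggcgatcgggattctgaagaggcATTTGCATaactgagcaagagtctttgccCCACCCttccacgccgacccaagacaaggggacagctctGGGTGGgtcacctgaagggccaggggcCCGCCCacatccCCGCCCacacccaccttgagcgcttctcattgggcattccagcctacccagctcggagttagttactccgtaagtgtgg
Klf2: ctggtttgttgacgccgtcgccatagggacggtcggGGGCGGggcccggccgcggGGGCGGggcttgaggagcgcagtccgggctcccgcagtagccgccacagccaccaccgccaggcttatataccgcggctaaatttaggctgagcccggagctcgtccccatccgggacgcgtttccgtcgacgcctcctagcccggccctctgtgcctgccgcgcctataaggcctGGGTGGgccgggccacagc

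A match is a description of letters and not of a bound site. Of 32817 RefSeq windows of the same length, 14.0% held AGGTCA, 1.6% held ATTTGCAT, 28.1% held CCACCC, 32.7% held GGGCGG, 7.01% held TTCNNNGAA and 12.4% held TATAAA. Among the 9 member windows, 6 held CCACCC, the letters that KLF proteins recognise, in Klf2, Esrrb, Zfp42, Nr0b1 and Nr5a2. GGGCGG was in 3, those of Klf2, Klf4 and Zfp42, with some matches to it overlapping each other in Klf4. The half-site was in the windows of Nr0b1, at -126 from the start, and of Nr5a2. The octamer, the letters bound by POU factors, was in that of Zfp42, at -186 from the start. The STAT palindrome was in that of Esrrb, at -178 from the start. TATAAA was in the windows of Tfcp2l1, Nr0b1 and Nr5a2. The windows of Klf4 and Klf2 were rich in G and C, 74.0% and 71.2% of bases, against a median of 52.4% over all windows.

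All 12 member probes were lower in RA than in DMSO, and in each of them every RA array lay below every DMSO array. The falls ran from 4.62-fold for Tbx3 to 106-fold for Nr0b1, with a median log2 difference of -4.35. Each passed the test, limma's moderated test with Benjamini-Hochberg adjustment over all 37050 probes tested and an adjusted p under 0.05. A large share of the array differed between RA and DMSO, which were also on different slides. Of all tested probes, 35.5% were called lower, 36% were called higher, and 38.6% had every RA array below every DMSO array. A call alone therefore says little. The sizes are set against the probes that were called and fell at least 4-fold, 4.82% of all tested, among which all 12 member probes lay. The share called and at least 2-fold lower was 14.5%. With normexp, another background correction, Tbx3 (log2 -1.88), Klf5 (-1.99) and Nr5a2 probe A_55_P2142908 (-1.997) fell by less than 4-fold. In these bulk samples, fewer cells that express a gene and less RNA per cell cannot be told apart.

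**Figure D1:**
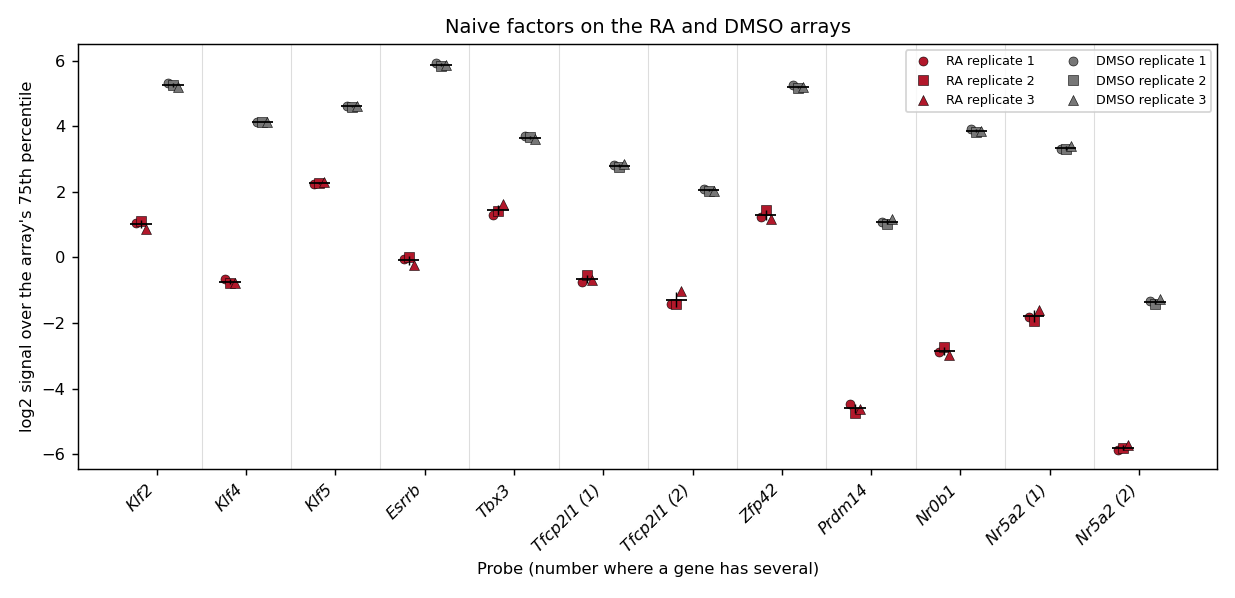
Log2 signal over the 75th percentile of the array (vertical axis) for the 12 member probes (horizontal axis), with RA samples in red left of DMSO samples in grey. Symbols are replicates, horizontal bars group means and vertical bars SD (n = 3 each). Every red symbol lies below every grey one of the same probe, with the smallest gap for Tbx3 and Klf5.

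Among the nuclear receptors, Nr0b1, which encodes DAX1, a receptor-like protein that binds other nuclear receptors and Pou5f1's product, fell the most with the processed signal and as much as Esrrb with normexp, another background correction (log2 -5.63 for both). Its probe A_51_P106455 read -2.88, -2.73 and -2.97 in RA replicates 1, 2 and 3, against 3.92, 3.82 and 3.86 in DMSO replicates 1, 2 and 3. The log2 difference was -6.72 (SE 0.09, limma adjusted p = 3.638e-07), and 20 of all tested probes, 0.054%, fell by as much. This probe was spotted 10 times on each array, and the SD over its spots was 0.137 to 0.202 on RA arrays and 0.045 to 0.057 on DMSO arrays, with 1 spot left out on each of DMSO replicates 1 and 2.

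Esrrb, which encodes an orphan receptor that binds many of the same enhancers as the core factors, read -0.04, 0.02 and -0.24 in RA and 5.91, 5.82 and 5.87 in DMSO with probe A_55_P1954302. It fell 62.1-fold (log2 -5.96, SE 0.09, limma adjusted p = 4.754e-07). Nr5a2, which encodes LRH-1, a receptor that binds regulatory DNA of Pou5f1, read -1.81, -1.95 and -1.61 in RA and 3.31, 3.30 and 3.40 in DMSO with probe A_51_P514449. It fell 34.9-fold (log2 -5.12, SE 0.11, limma adjusted p = 7.526e-07). A dimmer probe of Nr5a2, A_55_P2142908, was not well above background on any RA array, with -5.87, -5.81 and -5.72 there, against -1.34, -1.43 and -1.26 in DMSO. Its fall was at least 17.9-fold (limma adjusted p = 5.666e-07), and its log2 difference with normexp background correction was -1.997. That bound sets the DMSO mean against, on each RA array, the higher of the probe's own signal and the lowest signal well above background.

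Prdm14, which encodes a PR-domain zinc-finger protein, read -4.46, -4.73 and -4.61 in RA and 1.07, 1.02 and 1.18 in DMSO. It was well above background on all 6 arrays and fell 51.9-fold (log2 -5.70, SE 0.10, limma adjusted p = 5.187e-07), with a log2 difference of -3.899 under normexp background correction. Zfp42 read 1.23, 1.46 and 1.16 in RA and 5.24, 5.18 and 5.20 in DMSO, a 15.2-fold fall (log2 -3.92, SE 0.10, limma adjusted p = 1.202e-06). RA and DMSO samples of both genes were far apart relative to the spread within a group.

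The KLF factors, which share a zinc-finger domain and overlapping binding sites, fell by unequal amounts. Klf4 read -0.65, -0.78 and -0.80 in RA and 4.13, 4.14 and 4.13 in DMSO, and Klf2 read 1.05, 1.10 and 0.87 in RA and 5.32, 5.26 and 5.18 in DMSO. Klf5 read 2.25, 2.28 and 2.30 in RA and 4.61, 4.57 and 4.62 in DMSO. The falls were 29.3-fold for Klf4 (log2 -4.87, 95% interval -5.05 to -4.70), 19.0-fold for Klf2 (log2 -4.25, interval -4.47 to -4.03) and 5.01-fold for Klf5 (log2 -2.32, interval -2.48 to -2.17). These intervals of the 3 KLF factors did not overlap each other, and a direct test between genes was not made.

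Tfcp2l1, which encodes a factor of the CP2 family, had probes that gave like values. A_52_P175376 read -0.76, -0.54 and -0.69 in RA and 2.80, 2.75 and 2.84 in DMSO, an 11.0-fold fall, and A_55_P2413458 fell 10.1-fold (log2 -3.46 and -3.33, SE 0.08 and 0.12). Tbx3, which encodes a T-box factor, read 1.30, 1.42 and 1.61 in RA and 3.71, 3.66 and 3.60 in DMSO. Its fall of 4.62-fold (log2 -2.21, SE 0.10, limma adjusted p = 1.027e-05) was the smallest of the members, and 1453 probes, 3.92% of those tested, fell by as much.

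Ordered by size, the falls differed in steps that depended on the background correction. With the processed signal the 95% interval of Nr0b1 overlapped no other. The intervals of Esrrb and Prdm14 overlapped, as did those of Klf4 and the brighter Nr5a2 probe. Klf2 and Zfp42 overlapped, the Tfcp2l1 probes overlapped, and so did Klf5 and Tbx3. The dimmer Nr5a2 probe, known in RA only as a bound, has no place in the order. With normexp Nr0b1 and Esrrb were level at -5.63, the brighter Nr5a2 probe was at -4.47, and Prdm14 (-3.90) was level with Klf2 (-3.91). The median over the 10 members, each by its brightest probe and relative to its DMSO mean, was -4.49, -4.53 and -4.66 in RA replicates 1, 2 and 3, against 0.02, -0.04 and 0 in DMSO replicates 1, 2 and 3.

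Markers of fibroblasts, primitive endoderm and trophectoderm differed between RA and DMSO. The summed linear signal of 9 fibroblast markers, in multiples of the 75th percentile, was 38.1 to 41.0 in RA and 2.14 to 2.30 in DMSO. Fap and Lum were well above background on no array, and of the 7 tested, 6 rose and 1, Thy1, fell. Col1a2, which averaged 5.11 in RA and -0.99 in DMSO on the log2 scale, made up most of the RA sum. For 7 primitive endoderm markers, of which 7 rose, the sum was 5.52 to 6.06 in RA and 0.892 to 0.957 in DMSO. For 7 trophectoderm markers it was 2.59 to 2.92 in RA and 1.29 to 1.37 in DMSO, with Elf5 and Hand1 well above background on no array; of the 5 tested, 3 rose and 1, Eomes, fell. For 5 blood and endothelial markers it was 10.11 to 15.75 in RA and 9.849 to 10.66 in DMSO, which overlapped; 2 rose and 1 fell. The summed signal of 8 embryonic stem cell markers was 85.9 to 95.5 in RA and 505 to 525 in DMSO. Of these 8, 7 fell and 1, Nanog, rose. Dppa5a, which averaged 6.26 in RA and 8.39 in DMSO on the log2 scale, made up most of this sum. The part of these shifts in the members' falls was not tested.

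In VC, the members were higher by small amounts in most of the set. Klf4, Esrrb and Zfp42 rose, as did 2 of the 3 Tfcp2l1 probes, by 1.29-fold to 1.39-fold, and no member probe was called lower. These 5 of 12 probes stand beside a background of 2.97% of 28160 tested probes called higher and 5.32% called lower. In 9 of 12 member probes every VC array lay above every ddH2O array, against 18.3% of all tested probes. The median log2 difference over the 12 probes was 0.37, and over all tested probes it was 0.01. Most of these calls did not hold with 1 array fewer. Leaving out any 1 of the 6 arrays left 0 or 1 member probe called, and 0 to 1038 of all tested probes against 2333. With slide as a block none was called, of members or of all tested probes. In that fit 6067 of all tested probes had an unadjusted limma p under 0.05.

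**Figure D2:**
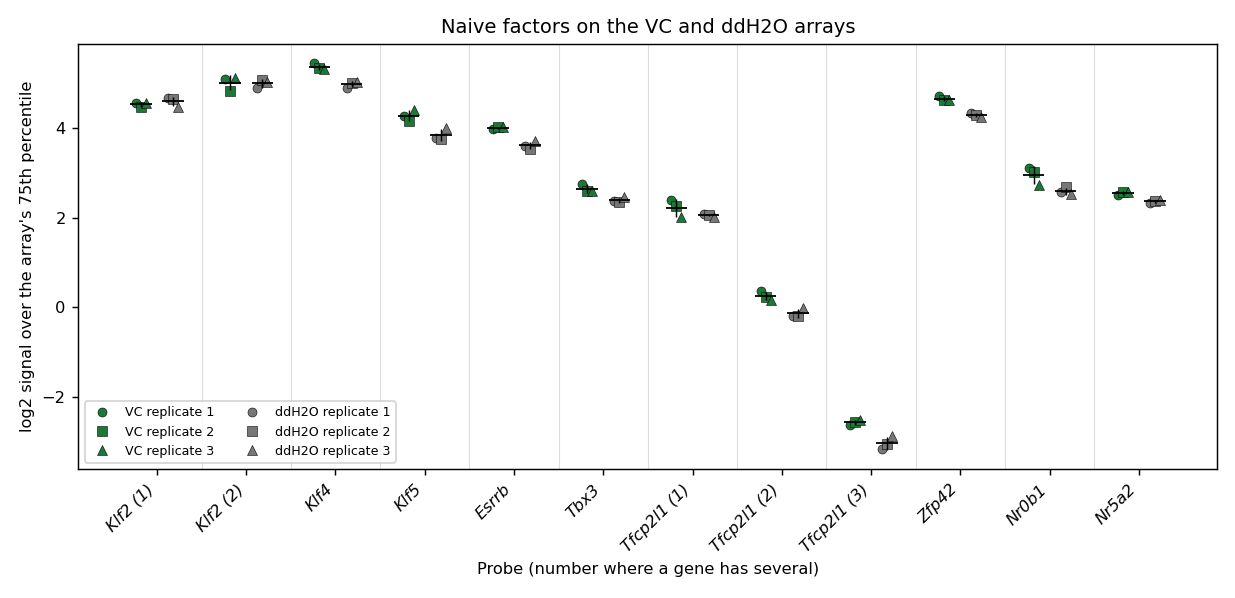
Log2 signal over the 75th percentile of the array (vertical axis) for the 12 member probes (horizontal axis), with VC samples in green left of ddH2O samples in grey. Symbols are replicates, horizontal bars group means and vertical bars SD (n = 3 each). Green symbols lie above all grey ones of the same probe in 9 of 12 probes, the exceptions being both Klf2 probes and the first Tfcp2l1 probe.

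Of the KLF factors, Klf4, with probe A_51_P213544, read 5.45, 5.36 and 5.31 in VC replicates 1, 2 and 3 and 4.91, 5.01 and 5.04 in ddH2O replicates 1, 2 and 3. It was 1.31-fold higher in VC (log2 0.39, SE 0.07, limma adjusted p = 0.03025). Klf5 read 4.283, 4.153 and 4.398 in VC and 3.77, 3.75 and 4.01 in ddH2O. All 3 VC values were above the ddH2O values and the log2 difference was 0.43, as large as that of Klf4, but its SE was 0.10 and it did not pass (limma adjusted p = 0.05121). Klf2 had log2 differences of -0.06 and 0.01 in its probes A_51_P144264 and A_52_P442031 (SE 0.08 and 0.10, limma adjusted p = 0.6472 and 0.9657), and VC and ddH2O values overlapped. The 95% intervals of the Klf2 probes were -0.25 to 0.13 and -0.24 to 0.26, against 0.22 to 0.55 for Klf4; the difference between the genes was not tested.

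Esrrb, read by probe A_51_P419047, was 3.99, 4.04 and 4.02 in VC and 3.60, 3.55 and 3.71 in ddH2O. It was 1.32-fold higher in VC (log2 0.40, SE 0.07, limma adjusted p = 0.0258). The other nuclear receptor genes did not pass. Nr0b1 read 3.11, 3.03 and 2.74 in VC and 2.58, 2.68 and 2.53 in ddH2O (log2 0.37, SE 0.11, limma adjusted p = 0.08925). Nr5a2 read 2.51, 2.57 and 2.58 in VC and 2.32, 2.38 and 2.39 in ddH2O (log2 0.19, SE 0.06, limma adjusted p = 0.08712). In both, all VC values were above all ddH2O values.

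Zfp42 read 4.73, 4.62 and 4.64 in VC and 4.33, 4.30 and 4.26 in ddH2O, and rose 1.29-fold (log2 0.37, SE 0.06, limma adjusted p = 0.02598). Tbx3 read 2.76, 2.59 and 2.60 in VC and 2.37, 2.36 and 2.46 in ddH2O, with no overlap but no call (log2 0.26, SE 0.07, limma adjusted p = 0.07894).

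The 3 probes of Tfcp2l1 did not give one answer. A_52_P516473 read 0.35, 0.23 and 0.17 in VC and -0.20, -0.19 and -0.02 in ddH2O (log2 0.39, SE 0.08, limma adjusted p = 0.04274). The dimmest, A_52_P63232, read -2.62, -2.57 and -2.52 in VC and -3.18, -3.06 and -2.89 in ddH2O (log2 0.47, SE 0.09, limma adjusted p = 0.03387), and 0.165 with normexp background correction. The brightest, A_52_P175376, read 2.39, 2.27 and 2.01 in VC and 2.08, 2.06 and 2.03 in ddH2O, so VC replicate 3 fell among the ddH2O values, and it did not pass (log2 0.17, SE 0.10, limma adjusted p = 0.3381).

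Within the slide that held arrays of both groups, 10 of 12 member probes were higher in VC, and in those 10 both VC arrays were above both ddH2O arrays, against 30.6% of all tested probes. The differences there were 0.38 for Klf4, 0.39 for Esrrb, 0.40 for Zfp42, 0.34 for Klf5, 0.47 for Nr0b1, 0.27 for Tbx3 and 0.16 for Nr5a2. They were 0.29, 0.39 and 0.38 for the Tfcp2l1 probes A_52_P175376, A_52_P516473 and A_52_P63232, and -0.04 and -0.10 for the Klf2 probes A_51_P144264 and A_52_P442031. With slide as a block the limma adjusted p of the 12 probes ran from 0.1239 to 0.85. The median over the 9 members, relative to the ddH2O mean, was 0.37, 0.31 and 0.22 in VC replicates 1, 2 and 3, against -0.02, 0.01 and 0.03 in ddH2O replicates 1, 2 and 3.

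**Figure D3:**
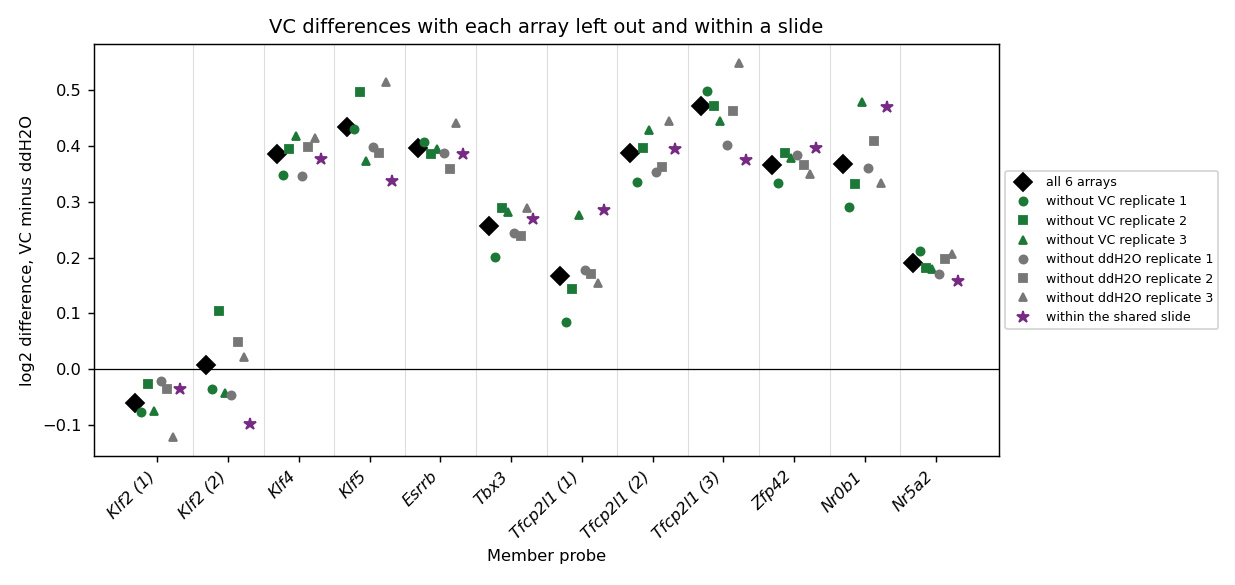
Log2 difference, VC minus ddH2O (vertical axis), for the 12 member probes (horizontal axis) with all 6 arrays (diamonds), with one VC (green) or one ddH2O (grey) array left out, and with slide as a block (stars). All symbols of the 10 probes other than those of Klf2 lie above 0, and the second Klf2 probe has symbols on both sides of it.

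Summed signals of fibroblast, trophectoderm, and blood and endothelial markers were lower in VC than in ddH2O, with no overlap. That of the 9 fibroblast markers was 2.95 to 3.28 in VC and 3.83 to 4.15 in ddH2O, with Fap and Lum well above background on no array. Of the 7 tested, 1 was called, Thy1, which fell by 0.61 on the log2 scale, and 3 had an unadjusted limma p under 0.05. Without a call, Col1a1, Dcn and Pdgfrb had -0.54, -0.67 and -0.40, while Col1a2, Col3a1 and S100a4 had 0.04, 0.28 and 0.26. The sum of the 7 trophectoderm markers was 1.14 to 1.41 in VC and 1.71 to 1.77 in ddH2O, with Gata3 on none. None of the 4 tested was called, and 1, Krt7, had an unadjusted limma p under 0.05. Krt7 averaged -0.73 in VC and 0.06 in ddH2O on the log2 scale and made up most of the gap between the sums. Markers of primitive endoderm summed to 0.628 to 0.658 in VC and 0.657 to 0.695 in ddH2O, which overlapped. The 4 blood and endothelial markers on this design summed to 0.732 to 0.808 in VC and 1.09 to 1.18 in ddH2O, with Ptprc on none, and 1 of the 2 tested, Cd34, fell. Markers of embryonic stem cells summed to 520 to 572 in VC and 501 to 578 in ddH2O, which overlapped. Dppa5a, which averaged 8.90 in VC and 8.93 in ddH2O on the log2 scale, made up most of this sum. Of the 6 tested, 1, Sall4, was called higher (log2 0.44) and 0 lower, with 2 at an unadjusted limma p under 0.05. The part of these marker values in the members' values was not tested.

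**Figure D4:**
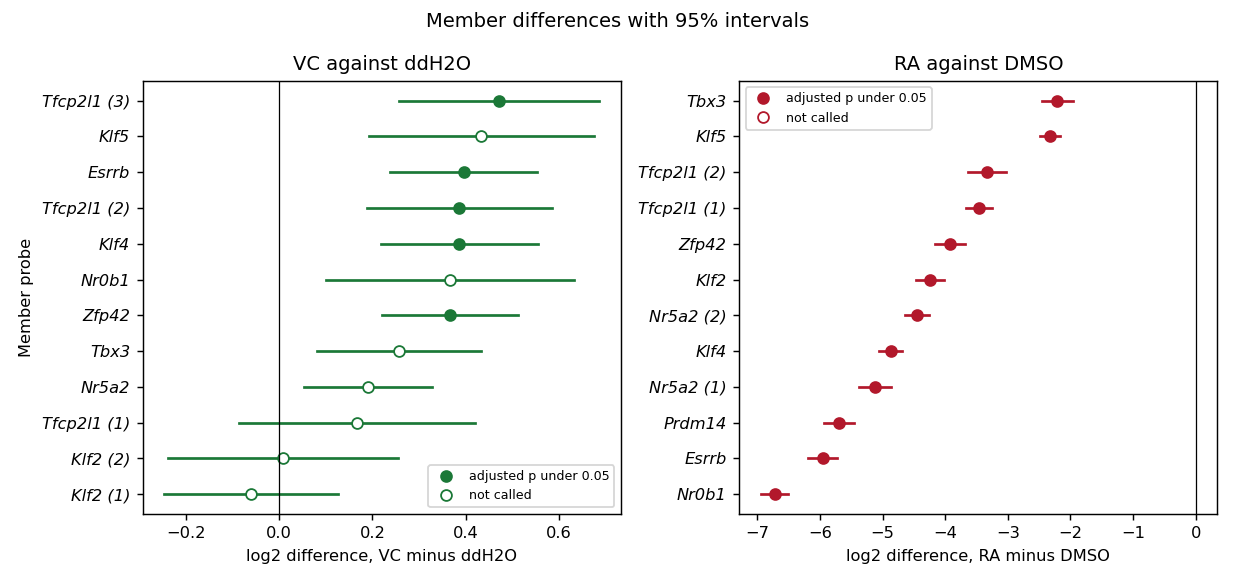
Log2 differences (horizontal axes) of the member probes (vertical axes, ordered by size) in VC minus ddH2O, left, and RA minus DMSO, right, with 95% intervals from limma. Filled points passed the adjusted p threshold and open points did not; the second Nr5a2 probe in RA is a fitted value for a probe not well above background there. The scales differ: the VC differences reach 0.47 and the RA differences -6.72.

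The 6 probes on both designs can be read side by side in VC and RA. Zfp42 rose by 0.37 in VC and fell by 3.92 in RA on the log2 scale. Klf2's A_51_P144264 had -0.06 in VC and -4.25 in RA, Klf5 had 0.43 in VC and -2.32 in RA, and Nr0b1 had 0.37 in VC and -6.72 in RA. Nr5a2's A_51_P514449 had 0.19 in VC and -5.12 in RA, and Tfcp2l1's A_52_P175376 had 0.17 in VC and -3.46 in RA. In VC, 1 of these 6, Zfp42, passed the test, and in RA all 6 did.

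The genes around the members were taken from 5 lists, with each gene given by its brightest tested probe. Over all named genes so represented, 3.18% were called higher and 7.14% lower in VC, and 34.8% higher and 40.8% lower in RA. Of the members so represented, 3 of 9 were called higher in VC, with a median log2 difference of 0.37, and 10 of 10 lower in RA, with a median of -4.56.

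In the core and general pluripotency list, 3 of 12 genes measured rose in VC and none fell, with a median of 0.22. They were Foxd3 (log2 0.59), a forkhead factor, Sall4 (0.44), a zinc-finger factor, and Mybl2. In RA, 11 of 13 fell and 2 rose, with a median of -2.07. Pou5f1, which encodes OCT4, averaged -0.92 ± 0.66 in RA and 4.12 ± 0.07 in DMSO (SD, n = 3 each), a 33.0-fold fall. Foxd3 fell by 6.60 on the log2 scale, and was well above background on 1 of the 3 RA arrays; with normexp its difference was -3.58 in RA and 0.25 in VC. The 2 that rose were Nanog, at 1.53 ± 0.22 in RA and 0.21 ± 0.07 in DMSO (SD, n = 3 each, log2 1.32, limma adjusted p = 0.0001916), and Lin28a, an RNA-binding protein gene (0.43). Nanog is given by probe A_55_P2007699 alone, and no probe on the design used for VC matched it. With arrays scaled on spike-in spots, which moved the median of all probes to -0.45, Lin28a's difference was -0.05 and Nanog's was 0.84.

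Of the 9 genes of LIF and STAT3 input, 1 rose in VC, Gbx2, a homeobox gene activated by STAT3 (log2 0.45, limma adjusted p = 0.0337), with a list median of 0.17. In RA 6 fell and 1 rose, with a median of -0.48. Socs3 and Pim3, which STAT3 activates, both fell: Socs3 fell by 1.998 and Pim3 fell by 1.989 on the log2 scale. Stat3 itself had 0.06 in VC and 0.03 in RA and passed in neither (limma adjusted p = 0.5277 and 0.777). Jak1, the kinase upstream of STAT3, rose by 0.37 in RA but had -0.11 with spike-in scaling.

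Of 11 partners and cofactors, 4 rose in VC, with a median of 0.15: Zfp57, a factor that guards imprints (0.74), Tcl1, an activator of AKT (0.49), Tet1, a 5-methylcytosine dioxygenase (0.34), and Ncoa3, a coactivator of Esrrb (0.33). In RA 10 fell and 1 rose, with a median of -2.47. Tcl1 fell by 6.85 on the log2 scale and Dppa3, which protects maternal methylation, fell by 4.10, while with normexp Tcl1 had -5.46 and Dppa3 -2.89. The methyltransferase gene Dnmt3a rose by 0.50, or by 0.02 without a call under spike-in scaling.

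Of 29 paralogs of the members that were measured, 1 rose in VC, Klf3, a KLF repressor (0.44, limma adjusted p = 0.02173), and the list median was 0.01. In RA 15 fell and 5 rose, with a median of -0.36. Grhl3, of the family related to Tfcp2l1, fell by 3.57 and Klf9 fell by 2.97. Tbx2, the nearest relative of Tbx3, averaged 0.06 ± 0.44 in RA and -6.10 ± 0.54 in DMSO (SD, n = 3 each), was well above background on 1 of the 3 DMSO arrays, and rose by 6.17, and Prdm16 rose by 1.81. With normexp these differences were 2.93 for Tbx2 and 0.56 for Prdm16.

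Genes of the primed epiblast, the state that follows the naive one, did not pass in VC (0 of 9 at an adjusted p under 0.05 in limma, 4 at an unadjusted p under 0.05, median -0.08). In RA 6 of 10 fell and 4 rose, with a median of -1.28. Otx2, a homeobox factor of that state, fell by 7.25 and Lef1, a Wnt effector, fell by 3.53; with normexp the difference of Otx2 was -5.22. Dusp6, a target of FGF signalling, rose by 1.25 and Sox3 by 1.20.

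**Figure D5:**
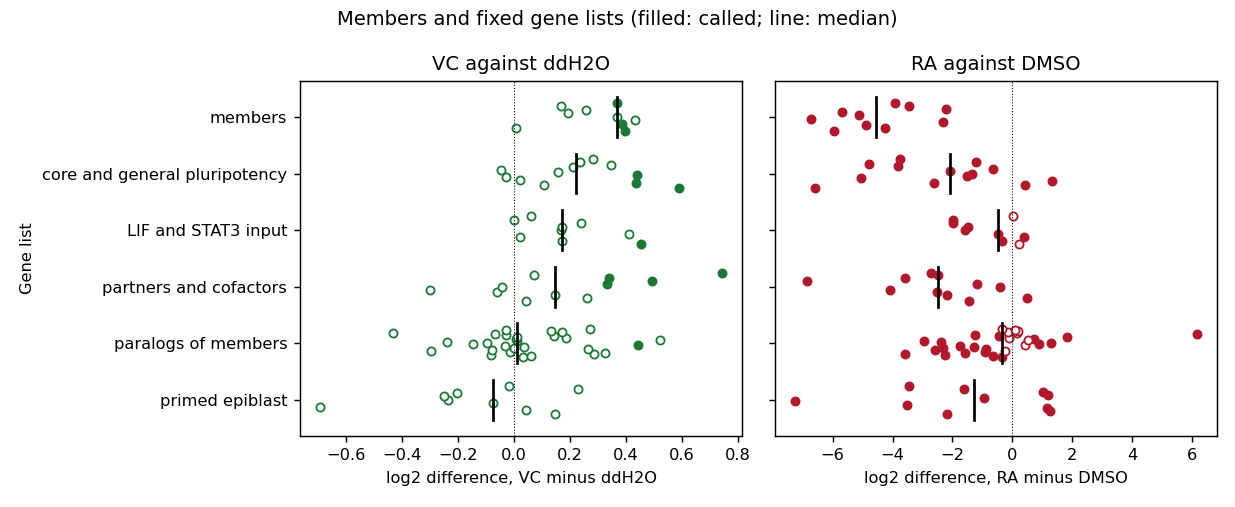
Log2 differences (horizontal axes) of single genes, by list (vertical axis), in VC minus ddH2O, left, and RA minus DMSO, right. Each point is a gene by its brightest tested probe, filled where called, and black lines are list medians; the members' medians are 0.37 in VC and -4.56 in RA.

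The genes whose profile over the 12 samples lay nearest to the members' median profile were sought among 13686 genes tested on both designs, by Euclidean distance of log2 values centred within each design. The 5 nearest that are no members were Cpt1a, a fatty acid oxidation enzyme gene, at 0.28, Gdf3, a TGF-beta family ligand gene, at 0.31, Manba, a lysosomal enzyme gene, at 0.33, Hal, which encodes histidine ammonia-lyase, at 0.39, and Serpina3c at 0.39. Cpt1a rose by 0.34 in VC (limma adjusted p = 0.02598) and fell by 4.41 in RA. Gdf3 had 0.21 in VC, without a call, and fell by 4.44 in RA. Of the 9 members measured on both designs, Zfp42 was 7th and Klf2 8th in distance among all these genes, at 0.44 and 0.45, while Nr0b1 was the farthest at 3.05. The median profile was taken over these same 9 members, so their distances to it are not independent of it. The RA arrays weigh most in the distance, since the differences there are larger, and the samples of a design share its slides.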

How the data were processed

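Total RNA of 12 samples was measured on one-colour Agilent arrays. Each array's deposited file gives one processed intensity for a spot, from which the software (Agilent Feature Extraction, given as 10.7 in the submitters' processing notes and as 10.7.3.1 in the headers) had removed background and spatial trend. A log2 value for each probe, as the authors deposited it in the series tables, served as an alternative. Here log2 of the processed intensity was taken, each array's 75th percentile of non-control spots subtracted, spots flagged as outliers left out and spots of a probe averaged. Probes well above background on at least 3 of 6 arrays were tested with lmFit and eBayes of limma 3.58.1 (R 4.3.3), each design alone, with Benjamini-Hochberg adjustment over all tested probes and a threshold of 0.05. The files hold accessions and no gene names, so names came from RefSeq's table for GRCm38.p6, which matched 27479 of 41174 and 27235 of 55681 probes. No spot was saturated, and the number of arrays limits the precision.

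Members and lists were chosen with earlier results of these data known. The rule for named genes took every member probe, up to 2 rises and 2 falls among called genes of each list, and the 5 nearest profiles; Mybl2, Tet1, Ncoa3, Stat3 and the markers named were added after their values were seen. On simulated data, 67 probes changed 1.5-fold, 67 changed 2-fold and 66 changed 4-fold in each design. The VC fit over 28160 probes recovered 43.3%, 73.1% and 92.4% of these. The RA fit over 37050 probes recovered 16.4%, 58.2% and 89.4%. In the real data 8.28% of tested probes were called in VC and 71.6% in RA, and the adjustment depends on that share. These recoveries therefore do not give the power of the real fits. Normalization, background correction, filter, probe choice, variance model, threshold and block were varied one at a time, and each sample was left out in turn.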

Additional observations from a re-analysis of the deposited data

How the results depend on the processing

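All 12 member falls in RA kept direction and call in every alternative that gave a value, 225 in all. The fall of Nr5a2's dim probe A_55_P2142908 was -1.997 and that of Prdm14 -3.899 with normexp, run on the median signal because the mean column was not used here, and that of Nr0b1 ran from -7.21 with spike-in scaling to -5.63 with normexp, level with Esrrb. The median of all probes was 0.03 in RA as reported, -0.31 when scaled on the median and -0.45 when scaled on spike-in spots, and the share of higher calls was 50.3%, 34% and 27.3%, and 63.6% without a filter. In VC that share was 35.8% as reported, 56.4% with median scaling, 47.1% with spike-in scaling, 46.6% with a variance trend and 25.7% with scan day as a block. Testing 1 probe per named gene left 12489 RA calls, since fewer probes were tested.

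In VC, 11 of 12 member probes kept their direction in all alternatives. The 5 member calls became 0 without a filter on dim probes, 0 at an adjusted p under 0.01, 0 with the replicate block, 0 with slide as a block, 1 with scan day as a block and 9 with a variance trend. Calls over all probes were then 0, 16, 0, 0, 666 and 3978, against 2333 as reported, with 7634, 8078, 7644, 6067, 7250 and 8604 at an unadjusted limma p under 0.05. Leaving out one array gave 0 to 1 member calls and 0 to 1038 calls over all probes: 0 without VC replicate 1, ddH2O replicate 1 or ddH2O replicate 2 (6236, 6261 and 5823 at an unadjusted limma p under 0.05), 1038 without VC replicate 2, 666 without VC replicate 3 and 385 without ddH2O replicate 3. The cause was not tested. Only VC replicate 3 was scanned on another day, so the scan day block gave the same calls as leaving it out and is no separate check. Same-numbered samples did not deviate together (correlations -0.069 to 0.051). Whether samples of one number were handled together is not given in the labels, and these correlations cannot show it.

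The Klf2 probe A_52_P442031 was 0.01 as reported and -0.042 with quantile normalization and with both normexp fits, -0.056 with the authors' series values, -0.097 with slide as a block, -0.002 with slide as a random block, -0.043 with scan day as a block, and -0.036, -0.043 and -0.046 without VC replicate 1, VC replicate 3 and ddH2O replicate 1. Leaving out one array at a time gave it -0.046 to 0.104. In RA, Jak1 was -0.109 and Lin28a -0.051 with spike-in scaling. No slide or scan day block could be fitted in RA.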
